A study of Homo sapiens with 6 samples.

Results

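The heat shock protein and DNAJ chaperone genes were taken as all protein-coding genes of the deposited table whose symbol starts with HSPA, HSPB, HSPD, HSPE, HSPH, HSP90, DNAJA, DNAJB or DNAJC, leaving out HSPA5. The rule found 76 of the 32896 listed genes, and it used names and no measured value. RNA-seq was made from BHT101, an established cell line from an anaplastic thyroid carcinoma, 48 h after lipid transfection with an SK4 plasmid (n = 3) or a control plasmid (n = 3). SK4 is the calcium-activated potassium channel encoded by KCNN4, and the series asked which genes and splicing events lie downstream of it. All 6 libraries came from transfected cells of this 1 line, so every level below is that of cells exposed to a lipid reagent and a plasmid. Control replicate 3 carries the name BHT102 in 1 of its labels and BHT101 in the others, and it was also the shallowest library. Nothing states whether replicates were separate cultures, so each test below reads the variation among 3 libraries a group, part or all of which may be technical.

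Heat shock proteins hold, fold and refold other proteins. HSP70 proteins, encoded by HSPA genes, bind unfolded stretches in a cycle driven by ATP, and J-domain proteins, encoded by DNAJ genes, bring substrates and start that cycle. HSP110 proteins (HSPH1, HSPA4 and HSPA4L) release the nucleotide and end it, HSP90 proteins finish the folding of kinases and receptors, the small heat shock proteins (HSPB) hold unfolded proteins without ATP, and HSPD1 with HSPE1 forms the folding chamber of mitochondria. Many of these genes are induced together when the factor HSF1 binds heat shock elements, inverted repeats of GAA, in their promoters, and carcinoma cells often express them at a high level without heat.

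Promoters of 3 members are shown to mark where such repeats lie in a gene silent without stress in most cells (HSPA6), in the main constitutive HSP70 gene (HSPA8) and in the inducible HSP90 gene (HSP90AA1). The 250 bases before each RefSeq start (GRCh38.p14) are given 5′ to 3′ on the gene's strand, with each match to the 3-unit element in capitals.
HSPA6, chr1:161524290-161524539, plus strand: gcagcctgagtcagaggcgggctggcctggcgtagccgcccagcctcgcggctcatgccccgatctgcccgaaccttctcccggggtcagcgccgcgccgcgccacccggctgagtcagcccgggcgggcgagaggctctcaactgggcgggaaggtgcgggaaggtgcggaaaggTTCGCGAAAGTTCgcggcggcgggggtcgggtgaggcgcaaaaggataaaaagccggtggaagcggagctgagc
HSPA8, chr11:123062137-123062386, minus strand: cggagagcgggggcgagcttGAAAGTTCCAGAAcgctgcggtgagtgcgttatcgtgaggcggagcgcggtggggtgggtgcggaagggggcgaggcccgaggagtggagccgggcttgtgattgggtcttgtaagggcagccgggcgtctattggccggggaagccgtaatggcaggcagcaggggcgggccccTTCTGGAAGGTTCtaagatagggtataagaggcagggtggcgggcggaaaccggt
HSP90AA1, chr14:102087045-102087294, minus strand: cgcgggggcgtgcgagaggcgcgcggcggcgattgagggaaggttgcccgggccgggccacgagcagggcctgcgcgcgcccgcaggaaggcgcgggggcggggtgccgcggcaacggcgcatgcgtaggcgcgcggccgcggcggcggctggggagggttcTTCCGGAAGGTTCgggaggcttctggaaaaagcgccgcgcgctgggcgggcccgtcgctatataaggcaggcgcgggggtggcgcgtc
The motif searched was GAA, any 2 bases, TTC, any 2 bases and GAA, together with its reverse complement (TTC, any 2 bases, GAA, any 2 bases and TTC), which covers both strands. The window ran from 250 bases before to 50 after each start, and matches may overlap. Of the 67 members with a promoter window, 7 held a match, against 0.608% of the 27305 genes of the promoter table. The others were HSPD1, HSP90AB1, DNAJB6 and DNAJA1. Of these, only DNAJA1 had its match after the start, and the HSPD1 matches lay before its inner start at 197499840. The first base of the match lay 74 bases before the start in HSPA6, 230 and 55 bases before it in HSPA8, and 88 bases before it in HSP90AA1. No match says only that these letters are not in the window.

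The libraries held an estimated 29700000 to 38500000 fragments. KCNN4 checked the labels, with 184.1, 147.7 and 169.2 FPKM (fragments normalised to gene length and to the mapped fragments of the library) in the SK4 libraries, against 8.31, 8.26 and 8.52 FPKM in the control libraries (log2 fold change 4.23, limma adjusted p = 8.83e-07). It was the 1 gene called among 11139 tested, where tested means at least 1 FPKM in at least 3 libraries and called means a Benjamini-Hochberg adjusted p below 0.05. In bulk RNA, a larger share of transfected cells and more transcript per transfected cell cannot be told apart. For the labelled cell type, keratin and EPCAM genes were expressed, with a summed level of the 6 epithelial markers of 595.4 to 648.3 FPKM in SK4 and 576.8 to 626.2 FPKM in control libraries. Most of that sum was keratin, and CDH1 was low, at 1.59 to 1.97 FPKM in SK4 and 1.65 to 1.79 FPKM in control libraries. The 9 thyroid follicular markers summed to under 1 FPKM in every library, and 6 of them, TG and TSHR included, stayed below 0.1 FPKM throughout. Of 7 leukocyte markers, CD14 (3.32 to 4.20 FPKM in SK4 and 3.72 to 4.43 FPKM in control libraries) and CD68 (1.63 to 2.19 FPKM in SK4 and 1.70 to 1.90 FPKM in control libraries) passed the filter, while PTPRC, the defining gene, was at 0 to 0.01 FPKM. Of 5 fibroblast markers, LUM stood at 22.8 to 31.2 FPKM in SK4 and 21.9 to 26.9 FPKM in control libraries, and COL1A1 and COL1A2 at 0.01 to 0.08 FPKM. No marker of these lists was called, and the source of the CD14, CD68 and LUM transcripts was not tested.

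Chaperone transcripts were abundant in both groups and nearly equal between them. Of the 76 members 55 were tested, and 0 were called (background 0.00898% of all tested genes). At an unadjusted p below 0.05 there was 1 member, HSPA6, beside 1.65% of all tested genes, so the count was near the background (1.06% of all tested genes were higher at that p, and 0.593% were lower). The median tested member was 2.76% higher in the SK4 libraries (log2 fold change 0.039), against a median of 0.011 over all tested genes. The sign was positive for 49 of the 55 members and for 57.9% of all tested genes. Without control replicate 3 it was positive for 18 of 55, with a median of -0.027, and for 39.0% of all tested genes. It was positive for 42 of 55 with median scaling (49.9% of all tested genes) and 41 with upper-quartile scaling (48.7%). With library weights it was positive for 30 (41.1%), and without SK4 replicate 1 for 29 (46.8%). For all 55 (53 with a pseudocount of 0.1), the 95% confidence interval excluded any change as large as 1.5-fold, and the same held for 96.8% of all tested genes. The summed level of the 76 genes was 2188 ± 66.1 FPKM in the SK4 and 2171 ± 139.1 FPKM in the control libraries (SD, n = 3 each).

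Most of that sum came from few genes. HSP90AB1, HSPA8, HSPB1 and HSPE1 were the 4 members above 100 FPKM and held 62.3% to 65.7% of the sum in each library. Another 23 tested members averaged 10 to 100 FPKM and 28 averaged 1 to 10 FPKM, and the median tested member stood at 9.79 FPKM, against 5.17 FPKM for the median tested gene. From HSP90AB1 down to HSP90AA1, the next in order, each gene's lowest library lay above the highest library of the next gene. Of the 54 pairs of neighbours in the order of levels, 9 were apart in this way and the other pairs overlapped.

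**Figure D1:**
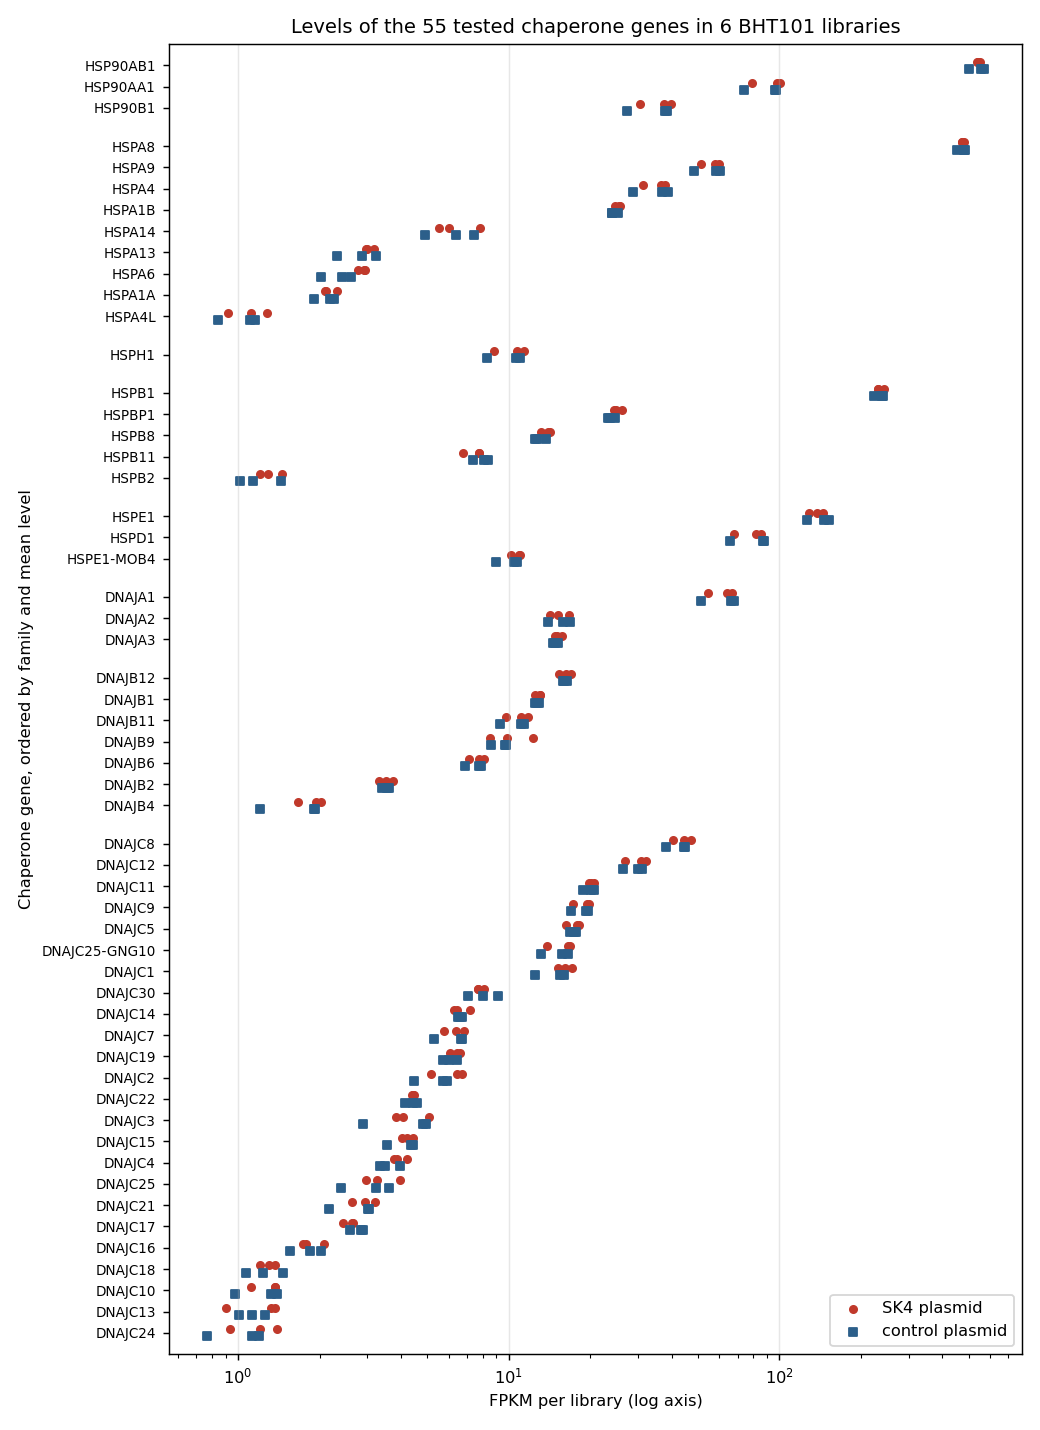
FPKM (log axis) of the 55 tested chaperone genes, with 1 point per library, 3 SK4 libraries as circles just above 3 control libraries as squares, and genes ordered by family and mean level. HSP90AB1 and HSPA8 lie between 452.1 and 567.8 FPKM in every library, and points of both groups lie on top of each other for nearly every gene.

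The cytosolic HSP90 pair was dominated by its constitutive member. HSP90AB1, which is expressed without stress, held 552.7, 538.1 and 542.2 FPKM in the SK4 libraries and 567.8, 556.8 and 502.7 FPKM in the control libraries (log2 fold change 0.0070, SE 0.048). Its SK4 values lay within the control range. HSP90AA1, the heat-inducible cytosolic form, held 100.6, 79.0 and 97.8 FPKM in the SK4 libraries and 97.02, 96.5 and 73.7 FPKM in the control libraries (log2 fold change 0.057, SE 0.13). SK4 replicate 2 and control replicate 3 were its low libraries, and the groups overlapped. The level of HSP90AB1 over that of HSP90AA1 was 5.49, 6.81 and 5.55 in the SK4 and 5.85, 5.77 and 6.82 in the control libraries. HSP90B1, the HSP90 of the endoplasmic reticulum (ER), showed the same low libraries, with 39.7, 30.5 and 37.4 FPKM in the SK4 and 38.3, 37.7 and 27.3 FPKM in the control libraries.

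Among HSP70 genes, the constitutive HSPA8 was far above the inducible copies. HSPA8, which serves protein folding and clathrin uncoating in unstressed cells, held 472.3, 470.7 and 480.0 FPKM in the SK4 and 479.5, 484.8 and 452.1 FPKM in the control libraries (log2 fold change 0.0074, fold interval 0.951 to 1.06). HSPA1B, a main stress-inducible HSP70 gene, held 25.7, 25.5 and 24.7 FPKM in the SK4 and 24.1, 25.3 and 24.1 FPKM in the control libraries (log2 fold change 0.046, SE 0.041). Its groups overlapped in a range narrower than that of most members. HSPA1A held 2.31, 2.09 and 2.11 FPKM in the SK4 and 2.27, 2.19 and 1.91 FPKM in the control libraries. The genes HSPA1A (ENSG00000204389, chromosome 6, 31815464 to 31817946, plus strand) and HSPA1B (ENSG00000204388, 31827735 to 31830255, plus strand) are near copies, and their longest GENCODE transcripts matched at 98.7% of 2150 aligned bases. The sources used here do not give how the authors assigned reads that fit both, so the 10.6 to 12.6-fold gap between them and each single level are uncertain. HSPA1L, their neighbour expressed mainly in testis, was not tested and was at 0.08 to 0.12 FPKM in the SK4 and 0.15 to 0.30 FPKM in the control libraries.

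HSPA6 had the smallest p of all members. It encodes an HSP70 that is strictly induced by stress and is not found in mice, and it lies on chromosome 1 at 161524540 to 161526910 (plus strand, GENCODE 29, GRCh38). It held 2.93, 2.78 and 2.95 FPKM in the SK4 libraries, against 2.61, 2.03 and 2.43 FPKM in the control libraries. All SK4 values lay above all control values, which was so for 1 of the 55 members and 3.53% of all tested genes. The opposite order held for 0 members and 1.81% of all tested genes, which brings the share without overlap to 5.34%. The mean was 2.89 ± 0.0929 FPKM in the SK4 and 2.36 ± 0.297 FPKM in the control libraries (SD, n = 3 each; log2 fold change 0.25, 95% interval of the fold 1.02 to 1.38, limma unadjusted p = 0.029, adjusted p = 0.99997). It was not called. Without control replicate 2, its lowest library, the log2 fold change was 0.17 (limma unadjusted p = 0.095). About 171 to 268 fragments lay behind each value, for which counting error alone gives a coefficient of variation of 6.11% to 7.64%. The neighbouring pseudogene HSPA7, whose transcript matches HSPA6 at 98.6% of 1926 aligned bases, was listed at 0.07 to 0.14 FPKM in the SK4 and 0.08 to 0.25 FPKM in the control libraries, so reads shared between them make HSPA6 uncertain too.

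**Figure D2:**
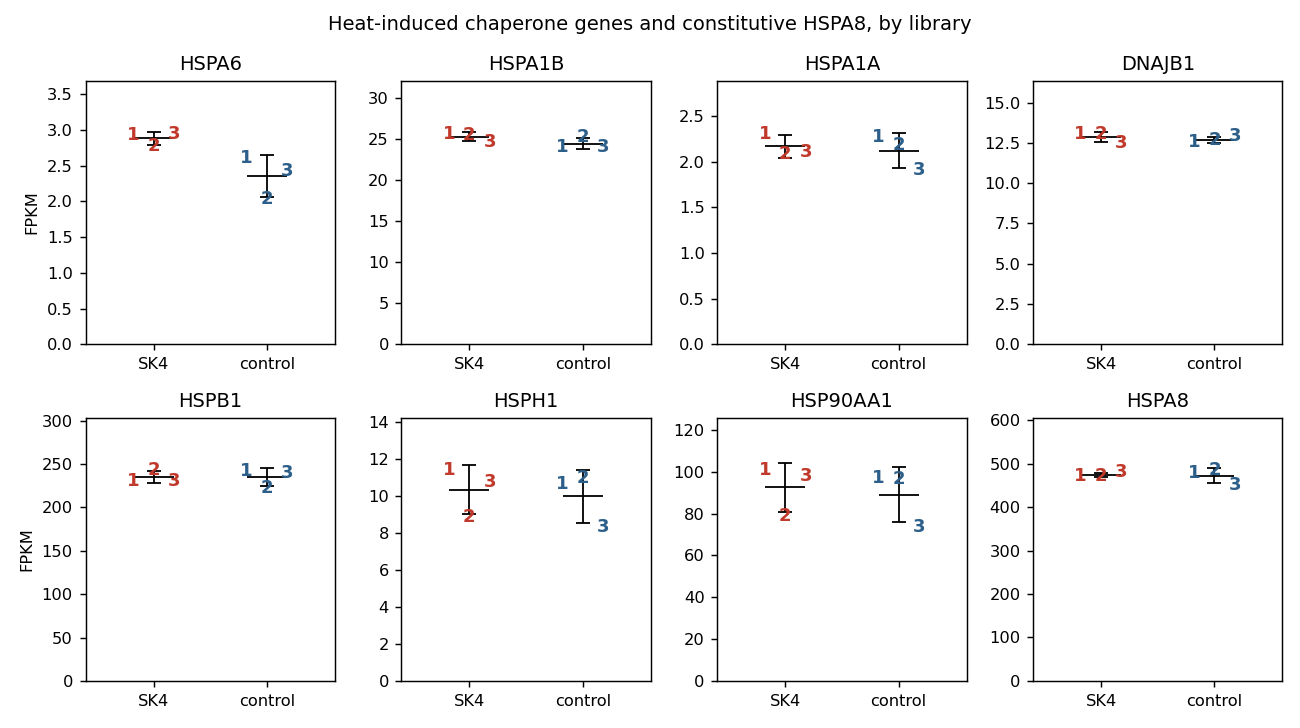
FPKM (linear axes from 0) of 7 heat-induced chaperone genes and of HSPA8, which is expressed without heat, in the SK4 group (left) and the control group (right) of each panel. Digits are replicate numbers at each library's value, and the black bar and whiskers are mean and SD (n = 3). HSPA6 is the 1 panel whose groups do not overlap, while in HSPH1 and HSP90AA1 SK4 replicate 2 and control replicate 3 are low.

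The other stress-inducible members overlapped between the groups. DNAJB1, the J-domain partner of inducible HSP70, held 13.1, 13.02 and 12.5 FPKM in the SK4 and 12.5, 12.7 and 12.9 FPKM in the control libraries (log2 fold change 0.018, fold interval 0.942 to 1.09). With a coefficient of variation of 1.92% over the 6 libraries it was the steadiest tested member. HSPB1, the small heat shock protein HSP27, held 230.8, 242.6 and 230.4 FPKM in the SK4 and 241.5, 222.8 and 239.5 FPKM in the control libraries (log2 fold change 0.00070). HSPH1, an exchange factor of HSP70, held 11.4, 8.83 and 10.7 FPKM in the SK4 and 10.6, 10.96 and 8.33 FPKM in the control libraries (log2 fold change 0.049, SE 0.13).

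The remaining HSP70 and HSP110 genes did not separate the groups. HSPA4, an HSP110 of the cytosol, held 37.8, 31.4 and 36.4 FPKM in the SK4 and 38.6, 36.7 and 28.8 FPKM in the control libraries. HSPA9, the mitochondrial HSP70, ranged from 51.2 to 59.7 FPKM in the SK4 and from 48.5 to 60.4 FPKM in the control libraries. HSPA13, an HSP70 of the ER, averaged 3.05 ± 0.117 FPKM in the SK4 and 2.80 ± 0.454 FPKM in the control libraries (SD, n = 3 each). HSPA4L, a further HSP110, averaged 1.11 ± 0.180 FPKM in the SK4 and 1.03 ± 0.169 FPKM in the control libraries. HSPA14, which sits at the ribosome, ranged from 5.50 to 7.82 FPKM in the SK4 and from 4.90 to 7.44 FPKM in the control libraries, one of the 5 widest spreads among tested members. The log2 fold change was positive for 9 of 9 tested HSPA genes (0.0074 to 0.25), beside 57.9% of all tested genes, and none was called. That sign depended on the setting: 8 of 9 were positive with median or upper-quartile scaling, 4 with library weights, 4 without SK4 replicate 1 and 3 without control replicate 3. The shares of all tested genes in these fits are given above.

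Small heat shock protein genes ranged from among the highest members to near 0. HSPB8, which with BAG3 routes damaged proteins to autophagy, held 14.2, 13.9 and 13.2 FPKM in the SK4 and 12.7, 13.8 and 12.5 FPKM in the control libraries (log2 fold change 0.080, limma adjusted p = 0.99997). HSPB2 averaged 1.31 ± 0.127 FPKM in the SK4 and 1.20 ± 0.216 FPKM in the control libraries (SD, n = 3 each), and it overlaps the readthrough gene HSPB2-C11orf52. The letters HSPB also begin names of proteins that are no typical small heat shock proteins. HSPBP1, a nucleotide exchange factor of HSP70, held 24.5, 26.2 and 24.9 FPKM in the SK4 and 23.8, 23.2 and 24.8 FPKM in the control libraries (log2 fold change 0.074, fold interval 0.978 to 1.13). HSPB11, an intraflagellar transport subunit, held 7.74, 6.77 and 7.74 FPKM in the SK4 and 8.07, 8.37 and 7.35 FPKM in the control libraries (log2 fold change -0.091), the most negative value among the tested members. Of the 11 HSPB symbols 5 were tested, 4 of them with a positive and 1 with a negative fold change.

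The mitochondrial chaperonin genes varied together across libraries. HSPD1, the chamber subunit, held 85.7, 68.0 and 81.8 FPKM in the SK4 and 86.7, 87.7 and 65.5 FPKM in the control libraries (log2 fold change -0.021, SE 0.13). HSPE1, its lid, held 137.5, 128.7 and 144.8 FPKM in the SK4 and 145.6, 152.0 and 126.9 FPKM in the control libraries (log2 fold change -0.043, SE 0.073). For both genes SK4 replicate 2 and control replicate 3 were the 2 lowest libraries, as they were for 35 of the 55 tested members and 36.4% of all tested genes. The genes stand head to head on chromosome 2, with RefSeq starts 105 bases apart (197500274 for HSPD1 on the minus strand and 197500379 for HSPE1 on the plus strand), and an inner HSPD1 start lies 539 bases from that of HSPE1. The level of HSPE1 over that of HSPD1 was 1.61, 1.89 and 1.77 in the SK4 and 1.68, 1.73 and 1.94 in the control libraries. This ratio was highest in SK4 replicate 2 and control replicate 3, so HSPE1 fell less than HSPD1 there. HSPE1-MOB4, a readthrough gene that shares exons with HSPE1, averaged 10.7 ± 0.433 FPKM in the SK4 and 10.1 ± 0.946 FPKM in the control libraries (SD, n = 3 each). It runs from 197500413 to 197550726, beyond the end of HSPE1 at 197503457. Its level may therefore hold reads of MOB4 as well as of HSPE1, and how shared reads were assigned is not given.

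J-domain genes of class A and B were led by DNAJA1. DNAJA1, a cytosolic partner of HSPA8, held 66.7, 54.4 and 64.2 FPKM in the SK4 and 66.5, 68.1 and 51.3 FPKM in the control libraries (log2 fold change 0.0012, fold interval 0.823 to 1.22). DNAJA2, also cytosolic, averaged 15.4 ± 1.26 FPKM in the SK4 and 15.6 ± 1.43 FPKM in the control libraries, and the mitochondrial DNAJA3 averaged 15.2 ± 0.470 FPKM in the SK4 and 14.9 ± 0.354 FPKM in the control libraries (SD, n = 3 each). The fourth member of the class, DNAJA4, was too low to test. DNAJB9 and DNAJB11 act in the ER lumen, and DNAJB12 in its membrane. DNAJB9 held 12.3, 8.49 and 9.88 FPKM in the SK4 and 9.68, 9.77 and 8.61 FPKM in the control libraries, so SK4 replicate 1 stood highest and SK4 replicate 2 lowest. DNAJB11 ranged from 9.78 to 11.7 FPKM in the SK4 and from 9.31 to 11.4 FPKM in the control libraries, and DNAJB12 from 15.3 to 17.04 FPKM in the SK4 and from 15.9 to 16.3 FPKM in the control libraries. DNAJB6, which suppresses aggregation of polyglutamine proteins, ranged from 7.14 to 8.10 FPKM in the SK4 and from 6.87 to 7.92 FPKM in the control libraries. DNAJB4 held 1.94, 1.67 and 2.02 FPKM in the SK4 and 1.91, 1.93 and 1.21 FPKM in the control libraries, and control replicate 3 was its lowest library.

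Class C holds J-domain proteins with special tasks, and 24 of its 29 members were tested. DNAJC8, a spliceosome-associated protein, was the highest, with 44.2, 40.4 and 47.2 FPKM in the SK4 and 44.4, 44.8 and 38.0 FPKM in the control libraries. DNAJC12, which assists aromatic amino acid hydroxylases, held 32.2, 26.8 and 30.7 FPKM in the SK4 and 31.1, 30.1 and 26.4 FPKM in the control libraries. DNAJC11 of the mitochondrial membranes averaged 20.2 ± 0.395 FPKM in the SK4 and 19.9 ± 0.964 FPKM in the control libraries, and the histone chaperone DNAJC9 averaged 18.8 ± 1.33 FPKM in the SK4 and 18.6 ± 1.44 FPKM in the control libraries. DNAJC5, the cysteine string protein of secretory vesicles, averaged 17.5 ± 1.06 FPKM in the SK4 and 17.4 ± 0.432 FPKM in the control libraries (SD, n = 3 each). These 3 genes differed between groups by less than their spread. DNAJC25-GNG10, a readthrough gene, ranged from 13.8 to 16.8 FPKM in the SK4 and from 13.2 to 16.6 FPKM in the control libraries. Its level may hold reads of GNG10 as well as of DNAJC25 (2.97 to 3.95 FPKM in the SK4 and 2.39 to 3.60 FPKM in the control libraries). DNAJC1, a J protein of the ER membrane, held 16.1, 15.2 and 17.2 FPKM in the SK4 and 15.5, 15.9 and 12.5 FPKM in the control libraries (log2 fold change 0.14, limma adjusted p = 0.99997). In 1 library, control replicate 3, it was lower than in all others.

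The members with the widest spread turned on the same libraries. DNAJC3, which restrains the kinase PERK and folds proteins in the ER, held 5.07, 3.82 and 4.08 FPKM in the SK4 and 4.96, 4.84 and 2.90 FPKM in the control libraries (log2 fold change 0.051, fold interval 0.757 to 1.42). DNAJC24, an enzyme cofactor of diphthamide synthesis, held 1.39, 0.93 and 1.20 FPKM in the SK4 and 1.19, 1.13 and 0.77 FPKM in the control libraries. Both had their lowest value in control replicate 3 and the lowest SK4 value in replicate 2. DNAJC4 averaged 3.95 ± 0.236 FPKM in the SK4 and 3.60 ± 0.337 FPKM in the control libraries, and DNAJC17, a nuclear protein tied to splicing, averaged 2.58 ± 0.119 FPKM in the SK4 and 2.77 ± 0.169 FPKM in the control libraries (SD, n = 3 each). DNAJC30, a mitochondrial J protein, averaged 7.82 ± 0.217 FPKM in the SK4 and 8.08 ± 1.03 FPKM in the control libraries. DNAJC4, DNAJC17 and DNAJC30 were not among the widest. Control replicate 3 was the highest library for DNAJC17 (2.89 FPKM) and DNAJC30 (9.14 FPKM), and the highest control library for DNAJC4 (3.98 FPKM). The other tested class C genes averaged 1 to 7 FPKM, and none was called.

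**Figure D3:**
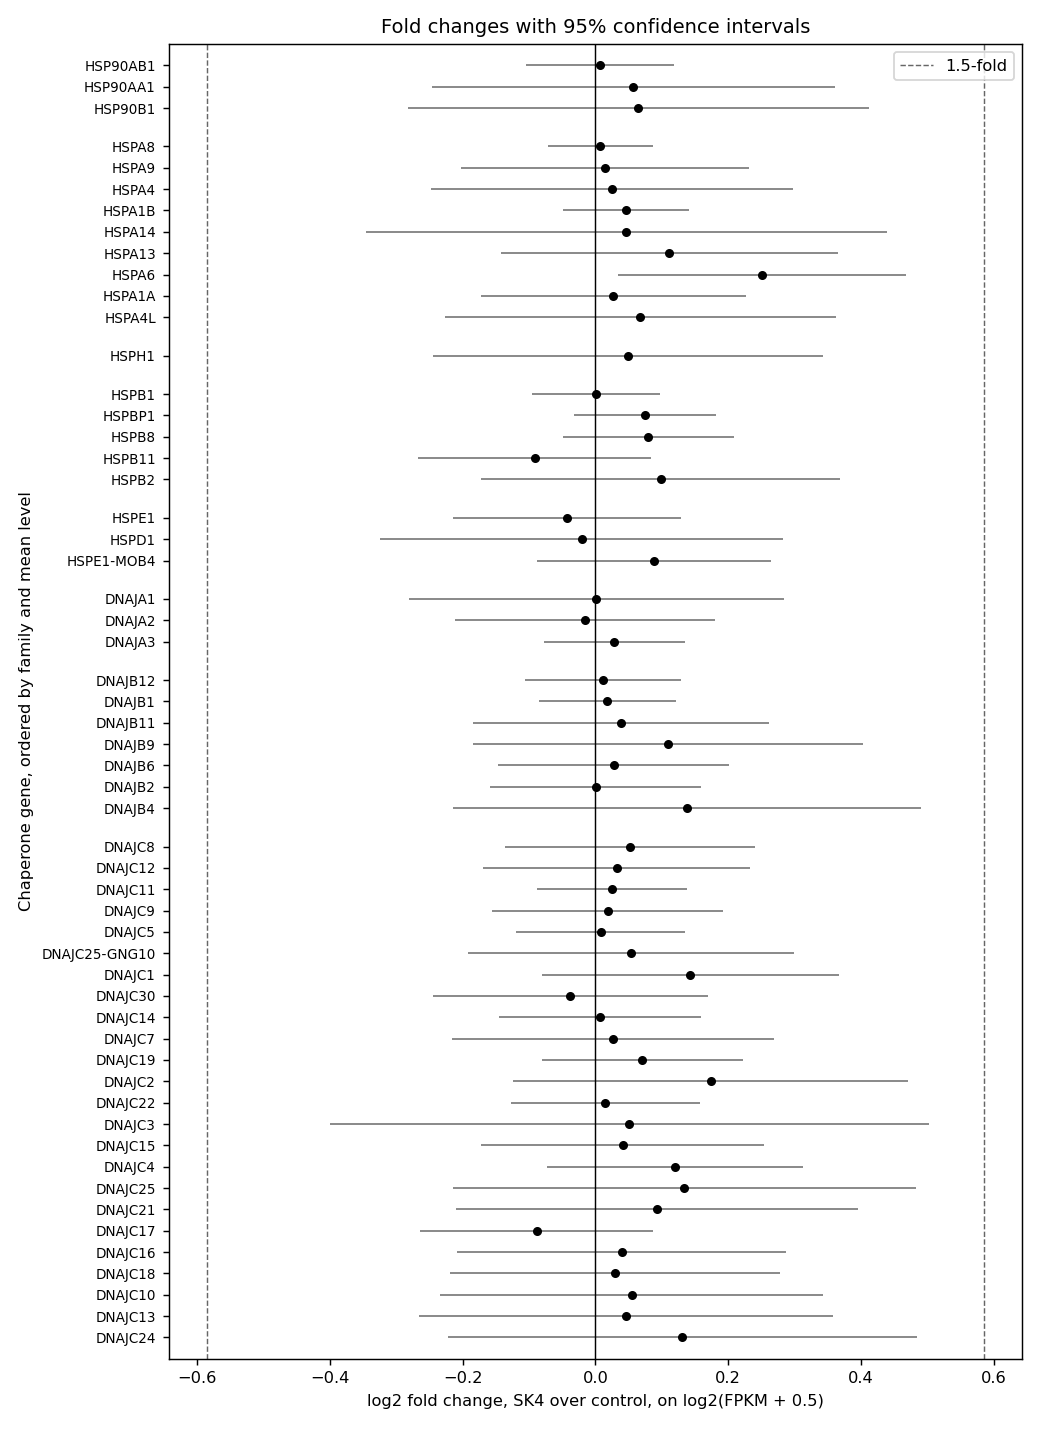
Log2 fold change (SK4 over control, on log2(FPKM + 0.5)) of the 55 tested chaperone genes, points with 95% confidence intervals from limma, in the same gene order as the plot of levels. Dashed lines mark 1.5-fold. Every interval lies inside them, and that of HSPA6 is the 1 interval that does not include 0.

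For the median member, libraries of one group differed more than the groups did. Control replicate 3 was the lowest library for 39 of the 55 tested members, against 46.4% of all tested genes. SK4 replicate 2 and control replicate 3 were together the lowest pair of libraries for 35 of the 55 members, and for 36.4% of all tested genes. As a log2 deviation from each gene's mean over the libraries, the median member stood at 0.079, -0.079 and 0.048 in SK4 replicates 1 to 3, and at 0.040, 0.055 and -0.16 in control replicates 1 to 3. Over all tested genes the same medians were 0.038, -0.020 and 0.0026 in the SK4 and 0.028, 0.030 and -0.071 in the control libraries.

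Which members were low in these libraries went with the GC content of their transcripts. The deviation in control replicate 3 had r = 0.76 with GC content over the 55 tested members and r = 0.49 over 11066 tested genes, and in SK4 replicate 2 it had r = 0.63 over the members and r = 0.49 over the tested genes. In the other 4 libraries r lay between -0.61 and -0.40 over the members. These are correlations across genes that share libraries, given as a description. For the 19 members with the lowest GC content (33.1% to 41.7%) the median deviation was -0.12 in SK4 replicate 2 and -0.25 in control replicate 3, and for the 18 with the highest (52.02% to 64.6%) it was 0.038 in SK4 replicate 2 and -0.032 in control replicate 3. Tested genes at or below 41.7% GC had medians of -0.12 in SK4 replicate 2 and -0.21 in control replicate 3. Those of the highest range had 0.030 in SK4 replicate 2 and -0.0023 in control replicate 3. The 18 members between these ranges had -0.11 in SK4 replicate 2 and -0.19 in control replicate 3, against -0.047 and -0.11 for tested genes of that range. Control replicate 3 was the lowest library for all 18 of them and for 57.9% of those tested genes. The 5 tested HSPB genes, with a median GC content of 60.9%, had medians of 0.049 in SK4 replicate 2 and 0.014 in control replicate 3, whereas the 3 HSP90 genes, at 45.2%, had -0.19 in SK4 replicate 2 and -0.29 in control replicate 3. The part of GC content in these differences was not tested. With a GC correction of each library, the median log2 fold change of the members was 0.019 and 0 were called.

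**Figure D4:**
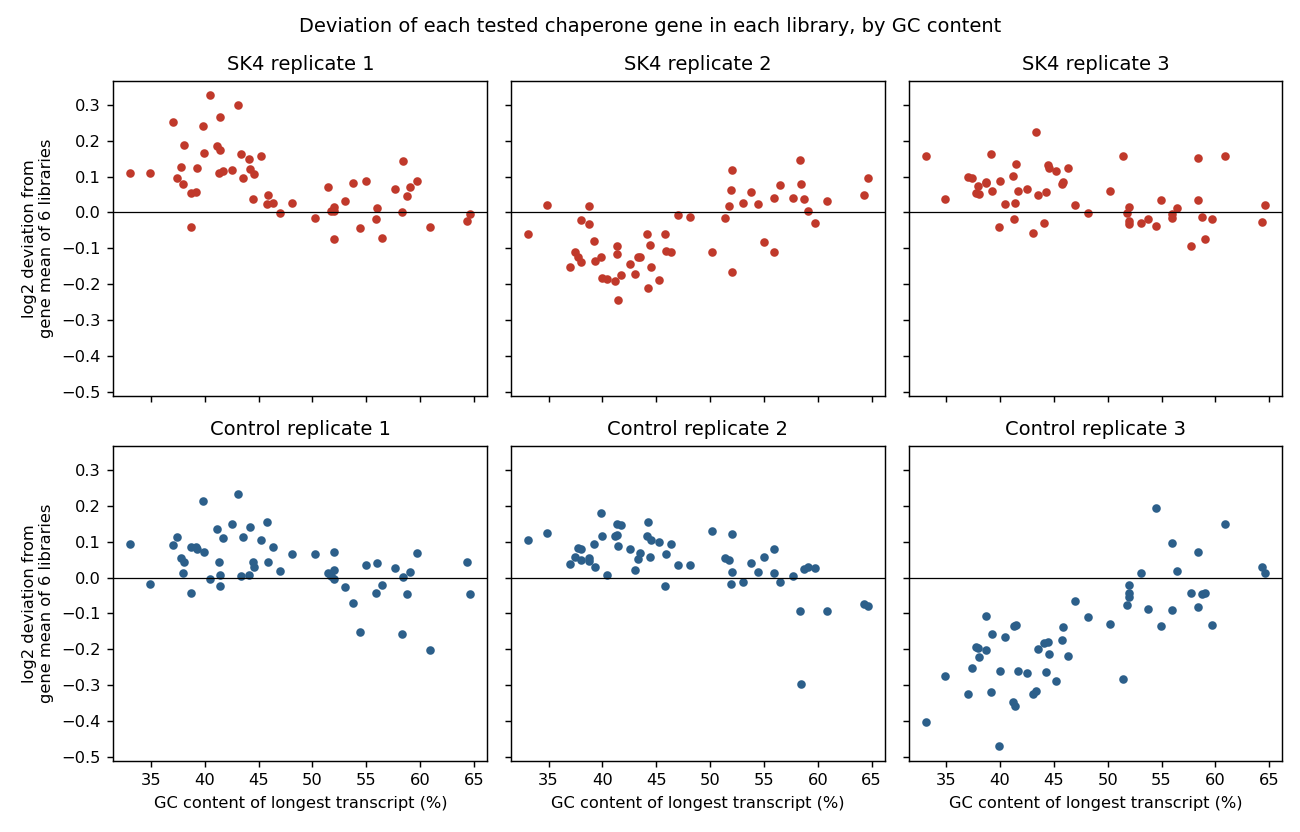
Deviation of each of the 55 tested chaperone genes from its mean over the 6 libraries (log2, vertical) against GC content of its longest transcript (percent, horizontal), with SK4 replicates 1 to 3 above and control replicates 1 to 3 below. Points below 50% GC lie mostly under 0 in SK4 replicate 2 and in control replicate 3, and mostly above 0 in the other 4 libraries.

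Grouped by place in the cell or by induction, no set held a called gene. The median log2 fold change was 0.060 for 8 tested ER members, 0.019 for 8 mitochondrial members, 0.049 for the 3 HSP110 genes and 0.046 for 7 heat-induced members, beside 0.011 for all tested genes. The summed level of the ER members was 105.6, 89.4 and 100.9 FPKM in the SK4 and 100.3, 100.8 and 80.6 FPKM in the control libraries. That of the mitochondrial members was 336.3, 302.5 and 337.7 FPKM in the SK4 and 346.0, 351.9 and 292.6 FPKM in the control libraries. Both sums were lowest in SK4 replicate 2 and control replicate 3 within their groups, and the groups overlapped. The 7 tested members with a heat shock element match had a median log2 fold change of 0.0074, against 0.040 for the 42 tested members with a promoter window and no match. Of the 7 heat-induced members, only HSPA6 and HSP90AA1 held a match, so these medians do not compare heat-induced with other members.

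The remaining 21 members were too low to test. Of these, 19 stayed below 1 FPKM in every library and 7 below 0.1 FPKM. HSPA2, an HSP70 of germ cells, was at 0.94 to 0.97 FPKM in the SK4 and 0.96 to 1.12 FPKM in the control libraries, and the muscle gene HSPB3 was at 0.84 to 1.37 FPKM in the SK4 and 0.55 to 1.07 FPKM in the control libraries. Tissue-restricted members such as the muscle gene HSPB7 and the testis genes DNAJB8 and DNAJB13 were listed at 0 to 0.03 FPKM. The table also lists 38 pseudogenes named after members, which summed to 3.33 to 4.55 FPKM per library, and HSPB1P1 was the 1 that reached 1 FPKM.

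Genes that work with these chaperones under other symbols were also close between groups. Across 7 lists of HSF factors, co-chaperones, chaperonins and other chaperones, 72 of 79 genes were tested and 0 were called. At an unadjusted p below 0.05 there was 1, PFDN1, higher in the SK4 libraries, beside 1.65% of all tested genes, so this count was near the background. HSF1, the heat shock factor, held 22.3, 22.9 and 21.1 FPKM in the SK4 and 22.3, 20.7 and 21.9 FPKM in the control libraries. PFDN1, a prefoldin subunit, held 39.5, 39.4 and 40.0 FPKM in the SK4 and 38.6, 36.1 and 35.7 FPKM in the control libraries (log2 fold change 0.11, limma unadjusted p = 0.033), without overlap, and it was not called. BAG3, a stress-induced exchange factor of HSP70, held 34.04, 33.4 and 33.03 FPKM in the SK4 and 32.1, 32.7 and 30.5 FPKM in the control libraries (log2 fold change 0.076, limma unadjusted p = 0.095). Among the 9 tested genes of the HSF list 3 were positive and 6 negative, and HSF4 was at 1.02 to 1.45 FPKM in the SK4 and 1.46 to 1.71 FPKM in the control libraries. Over the 7 lists, 2 of the 72 tested genes (PFDN1 and BAG3) were higher without overlap and 1 (HSF4) was lower without overlap, beside 3.53% (higher) and 1.81% (lower) of all tested genes. The 19 HSP90 co-chaperones (9 positive, 10 negative; median -0.0038) and the 8 TRiC chaperonin genes (4 and 4; median -0.0042) were evenly split. The 16 HSP70 co-chaperones (9 positive, 7 negative; median 0.0091), 8 prefoldin genes (4 and 4; median 0.0040), 3 J proteins (3 positive; median 0.043) and 9 chaperones with other symbols (4 and 5; median -0.0092) held no called gene either.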

How the data were processed

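The authors deposited 1 table of FPKM values, rounded to 2 decimals, with 1 column per library. HISAT2 and GRCh38 are named, per the submitters' processing notes; the sources used here give no version, counting tool or annotation. Polyadenylated RNA was captured and strand was kept, per the labels' protocols. Uneven recovery of GC-rich or GC-poor transcripts between libraries is not removed by FPKM. Samples were grouped by title. Control replicate 3 is BHT102 in its treatment label and BHT101 in its other labels, and was kept as a control.

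Genes reaching 1 FPKM in 3 or more libraries were tested as log2(FPKM + 0.5) with limma 3.58.1 in R 4.3.3 (group as the only term, trended and robust prior variance), and p-values were adjusted over all 11139 tested genes. Fold changes on this scale understate the change of low genes. The procedure was tested on simulated data, where 76% of genes changed by 1.5-fold and 88% of those changed by 2-fold were called, with 7 false calls. The simulated noise was independent between genes, without the drift shared by genes of the real libraries. Many more genes were changed in the simulation than were called here, which eases the adjusted threshold. These shares therefore do not give the sensitivity for the members. Depth was estimated from the FPKM steps of 561 single-exon genes shorter than 160 nt; at 1 FPKM and 1 kb, counting error alone gives a coefficient of variation of 16.1% to 18.3%. Coordinates, GC content (longest transcript) and transcript identity (local alignment, Biopython 1.88) came from GENCODE 29 on GRCh38, in which all 76 members were found; the authors' annotation may differ.

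Named genes were every tested HSP90, HSPA, HSPH, HSPB, HSPD and HSPE member, the highest DNAJ members of each class, the 5 members with the smallest p in each direction, the 5 with the widest range, and KCNN4. HSPA1L, HSPA2, HSPB3, HSPB7, HSPA7, DNAJB8, DNAJB13, HSF1 and the cell-compartment sets were chosen after values were seen. Of the lists fixed, 1 is not reported here. The members and lists were chosen with earlier results of these data known. The alternatives covered pseudocount, filter, scaling, library weights, prior variance, replicate number, threshold and each library left out.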

Additional observations from a re-analysis of the deposited data

How the results depend on the processing

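No chaperone gene was called (limma, adjusted p below 0.05) under any of the 18 alternative fits, and KCNN4 was called in all of them. At an unadjusted p below 0.05, 1 member passed with all libraries, beside 1.65% of all tested genes, and 0 to 4 did in the alternatives. The 4 came with library weights, where 8.12% of all tested genes passed. Across the alternatives that share was 1.19% to 8.12%. HSPA6 was among the passing members except without SK4 replicate 1, SK4 replicate 3 or control replicate 2, and where the filter left it out. Its log2 fold change lay between 0.17 and 0.31 when single libraries were left out. The median log2 fold change of the members, 0.039 in the main setting, reached -0.027 when control replicate 3 was left out and 0.080 when SK4 replicate 2 was left out, its lowest and highest values; the cause was not tested. It was 0.028 with median scaling, 0.029 with upper-quartile scaling, 0.0062 with library weights and 0.015 with only SK4 replicates 1 and 3 and control replicates 1 and 2, a fit that called 4 genes in place of 1. With the GC correction it was 0.019. The last 2 of these, and the GC correction with the replicate block, were chosen after seeing the data. When single libraries were left out, 51 to 55 of the 55 members kept an interval that excluded 1.5-fold, and with a pseudocount of 0.1 it was 53 of 55. The replicate block left the calls at 1 gene and 0 members. Whether same-numbered libraries were prepared together is not stated. Deviations of same-numbered libraries had r of 0.31, -0.41 and -0.15, and SK4 replicate 2 went best with control replicate 3 (0.53). Such deviations also went with GC content, so these r values cannot tell whether a number marks a shared preparation. Of 763 values for named members, 761 moved by less than the spread between replicates, and the other 2 were DNAJC5 with library weights (log2 fold change -0.062) and DNAJA3 in the fit of 4 libraries (-0.011). Ranked by medians in place of means, 16 (SK4) and 25 (control) of the 55 members took another place, by at most 3 places, and the first 6 kept theirs. Members that did not reach 1 FPKM in 3 libraries were left out of the main fit, so no fold change is given for them.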
